A study of Mus musculus with 48 samples.

Results

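This comparison sets 8 autochthonous mouse sarcomas against 4 transplanted sarcomas, all unirradiated and given an antibody to PD-1 3 days before harvest. The 12 tumours are 12 of the 48 in the series, chosen by their labels alone, and all genes of the count table were examined. The primary tumours arose in p53FL/FL mice injected at 6 to 10 weeks of age with Adeno-Cre, an adenovirus carrying the Cre recombinase that deletes the floxed Trp53 alleles, and with 300 µg of the carcinogen MCA (3-methylcholanthrene), both into the gastrocnemius muscle. The allografts grew from 50000 cells of 1 line, 402230, itself p53/MCA, injected with matrigel into the same muscle of syngeneic mice. The strain in the labels is 129/SvJae. Each mouse received 200 µg of muDX400, a murine anti-PD-1 antibody, intraperitoneally when its tumour reached about 150 mm3, with 0 Gy, and each sample is bulk RNA of a whole tumour. A further 8 primary tumours and 4 allografts given an isotype control antibody at 0 Gy, which share no tumour with the first 12, were used to see the same contrast without PD-1 blockade. Because every allograft comes from a single line, the 4 allografts sample the mice that received that line and not a range of transplanted sarcomas, whereas each primary tumour arose on its own. The labels do not say that replicates were processed apart, so the p-values measure the spread between these 12 tumours.

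PD-1 is an inhibitory receptor of activated T cells. Its ligands PD-L1 (Cd274) and PD-L2 (Pdcd1lg2) are displayed by tumour and myeloid cells, and interferon gamma, released by T and natural killer cells, induces PD-L1, the immunoproteasome, antigen transporters and the chemokines Cxcl9 and Cxcl10. An antibody to PD-1 removes this brake where T cells are already in the tumour. A transplanted line differs from an autochthonous tumour in that its cells were selected in culture and reached an immunologically intact host all at once, while a primary tumour develops over weeks in the same animal.

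The libraries held 37747858 to 53341463 counts in the primary tumours and 40318010 to 54008259 in the allografts. Mitochondrial transcripts made up 0.681 to 1.06% and 0.952 to 1.499% of counts, and the ribosomal-repeat gene Gm42418 1.126 to 3.167% and 2.248 to 3.977%. The animal identifier in the titles starts with 4 for 7 primary tumours and for allograft 2, and with 5 for primary tumour 7 and for allografts 1, 3 and 4; what the digit stands for is not given, so it is treated as a possible batch. The summed CPM (counts scaled to library size) of 15 skeletal muscle genes ran from 93 to 8909.7 in primary tumours and from 2767 to 18039.5 in allografts, the highest in allograft 1, and the source of this spread was not tested. In bulk RNA, fewer cells of a type and less RNA per cell cannot be told apart. Trp53 itself was at 30.2 ± 9.28 CPM (SD, n = 8) in primary tumours and 33.9 ± 9.88 CPM (SD, n = 4) in allografts (log2 fold change -0.16 ± 0.23, SE; edgeR quasi-likelihood test, adjusted p = 0.735). Counts of the whole gene do not show which exons were deleted, and stromal and immune cells keep the gene. Xist and the Y-linked Ddx3y differ among mice: Xist was at 76.1 CPM in allograft 2 and at 0.411 CPM or less in the other allografts, while Ddx3y was at 32.7 to 67 CPM in all 4. The log2 difference of Xist between the kinds was 1.73. It was 7.93 without allograft 2 and 1.06 without primary tumour 3, and Xist was called in none of these fits.

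Primary tumours and allografts differed in 1560 of 17455 genes tested, or 8.94%, at an adjusted p below 0.05. Of these, 863 (4.94% of genes tested) rose and 697 (3.99%) fell in primary tumours relative to allografts, and 1109 (6.35%) changed by over 2-fold. The median log2 fold change over all genes was 0.02. In 631 genes (3.62%) every primary tumour lay above every allograft and in 445 (2.55%) every one lay below. On the first principal component of the 500 most variable genes, which took 40.5% of their variance, the primary tumours lay at -44.9 to -9.1 and the allografts at 31.1 to 53.3. The root mean square log2 difference averaged 1.14 between the kinds, 0.96 among primary tumours and 0.78 among allografts. The count of calls fell to 634 without allograft 1 and to 641 without allograft 3, and with the identifier digit in the model it fell to 339.

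Some genes that were clearly read in every primary tumour were almost unread in the allografts. Nptx2, a neuronal pentraxin (chr5:144545902-144557478, plus strand), was at 11, 27.7 and 51.8 CPM as the lowest, median and highest of 8 primary tumours, and at 0.0587, 0.0363, 0.258 and 0.0502 CPM in allografts 1 to 4. It was near absent from the allografts and present in every primary tumour, 289-fold higher (log2 8.17 ± 0.65, adjusted p = 5.14e-05 by edgeR), and the fitted value rose to 9.15 without allograft 3. Kcnip1, a potassium channel interacting protein, stood at 2.57 to 20.6 CPM in primary tumours against 0.0196, 0, 0.0469 and 0.0251 CPM, which is 4 reads over the 4 allografts. Pcdh10, a protocadherin, was at 3.09 to 14.3 against 0.215, 0.0181, 0.0469 and 0.0502 CPM (log2 6.44 ± 0.69, and 7.57 without allograft 1). For each of these genes the lowest primary tumour lay above the highest allograft.

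A further 8 genes were higher by smaller factors, among them an enzyme of folate metabolism. Aldh1l2, the mitochondrial 10-formyltetrahydrofolate dehydrogenase (chr10:83487450-83534140, minus strand), was 7.68-fold higher, at 26 to 55.2 CPM in primary tumours against 4.52, 4.15, 7.6 and 5.07 CPM (log2 2.94 ± 0.24, adjusted p = 5.14e-05). Ulbp1, a ligand of the natural killer receptor NKG2D, was at 49.2 to 98.5 CPM against 11.6, 20.4, 13.7 and 19.2 CPM (log2 2.20 ± 0.22, adjusted p = 0.000232). Smarca1, a chromatin remodelling ATPase, was 7.7-fold higher, Ltc4s, which makes leukotriene C4, 9.96-fold, and Eda, ectodysplasin A, 5.02-fold. Ank2, an ankyrin, and Msrb3, a methionine sulfoxide reductase, were 4.13-fold and 2.58-fold higher, and Stox2 was 5.58-fold higher. The lowest primary tumour lay above the highest allograft for each of them.

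The genes lower in the primary tumours were led by a transcription factor and a detoxifying enzyme. Dmrta2, a DMRT-family transcription factor of the developing brain (chr4:109978053-109983687, plus strand), was at 0.0468, 0.112 and 0.286 CPM as the lowest, median and highest primary tumour and at 11.6, 16.8, 10.6 and 18.6 CPM in the allografts. This is a 110.6-fold difference (log2 -6.79 ± 0.40, adjusted p = 5.57e-06), the smallest adjusted p among the named genes. Pthlh, parathyroid hormone-related protein, was at 2.13 to 12.4 CPM against 109.9, 40.6, 50.6 and 189.6 CPM (log2 -3.87 ± 0.46). Allografts also held more Fam89a (8.88-fold), Hapln4, a hyaluronan link protein (8.27-fold), Rgl3, a Ral exchange factor (3.55-fold), Zfp51 (3.37-fold), Mmd (3.17-fold), Slc48a1, a haem transporter (2.83-fold), and Pla2g7, which hydrolyses platelet-activating factor (2.77-fold). The plot of 16 genes by tumour shows the level of such genes in each tumour and how much the immune genes varied among the allografts. Many of the 16 were picked for a small p in this comparison, so their separation follows from that choice.

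**Figure D1:**
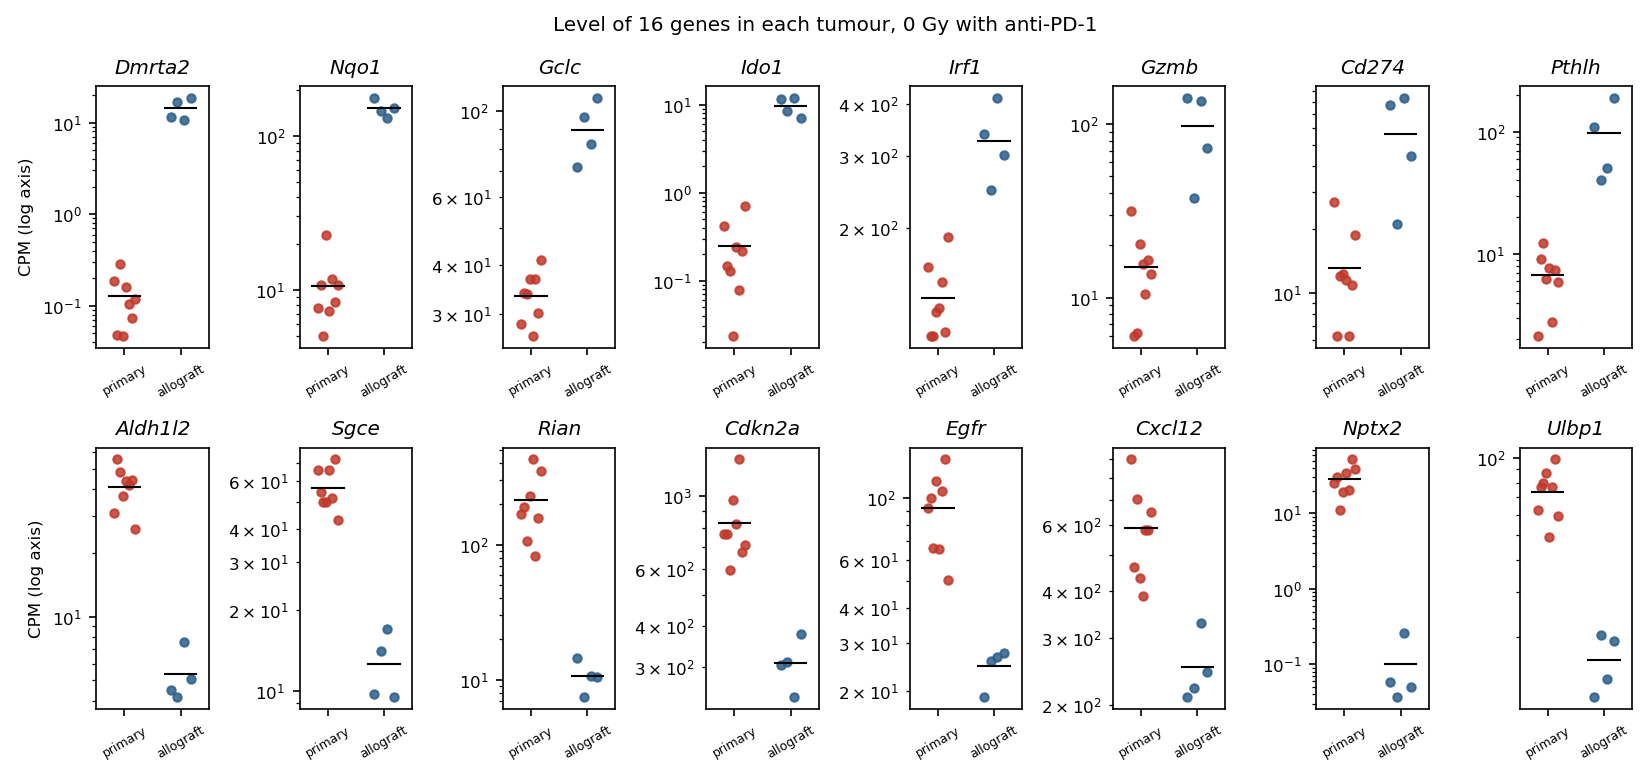
Level of 16 genes in each of the 12 tumours given anti-PD-1, in CPM on a log axis that differs between panels; points are tumours (8 primary, red; 4 allograft, blue) and bars are arithmetic means. Dmrta2 lies at 0.0468 to 0.286 CPM in primary tumours and at 10.6 to 18.6 CPM in allografts, while Cd274 overlaps between the kinds.

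Interferon gamma response genes were lower in the primary tumours. All 12 listed genes were called lower, beside 3.99% of all genes, and for all 12 every primary tumour lay below every allograft, beside 2.55% of all genes; the list's median log2 fold change was -1.56, against 0.02 over all genes. Their summed level was 513 to 1748 CPM in primary tumours and 3569, 2663, 4897 and 2922 CPM in the allografts. Ido1, which degrades tryptophan (chr8:24584136-24597009, minus strand), was at 0.0234, 0.182 and 0.7 CPM as the lowest, median and highest primary tumour and at 11.7, 8.47, 12 and 7 CPM in the allografts. It was 38.8-fold lower in the primary tumours (log2 -5.28 ± 0.57, adjusted p = 0.000366). Irf1, the transcription factor that relays the signal (chr11:53770014-53778374, plus strand), was at 109.7 to 190.3 CPM against 338, 248, 414 and 301 CPM (log2 -1.25 ± 0.18, adjusted p = 0.00207). Socs1, the feedback inhibitor of JAK kinases, was 2.24-fold lower, and the guanylate-binding proteins Gbp5 and Gbp2 were 3.93-fold and 3.18-fold lower. The immunity-related GTPases Iigp1 and Igtp were 4.34-fold and 3.64-fold lower. Members of these GTPase families have near copies in the genome, so how the counting split reads among them is uncertain. Cxcl9, the chemokine that draws CXCR3-bearing T cells, was at 33.9 to 382 CPM against 839, 511, 1422 and 669 CPM (adjusted p = 0.0173), and its call was lost without allograft 3 (adjusted p = 0.069). Cxcl10 was 2.74-fold lower, and its call was lost when any 1 of 8 tumours was left out (allografts 1 to 4 and primary tumours 3, 5, 7 and 8; adjusted p = 0.0513 to 0.11). Without allograft 3, the tumour with the highest summed level, 7 of the 12 genes were called.

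Promoters of these genes are shown because the members moved together and interferon gamma acts through short DNA motifs. In RefSeq windows of build GRCm38.p6, from 250 bases before to 50 after a gene's start, TTCNNNGAA, the letters of a gamma-activated sequence, occurred in 4 of the 10 listed genes with a window and in 9.55% of all 27025 genes, searched on both strands. GAAANNGAA, letters of an IRF site, occurred in 8 of the 10 and in 9.76% of all genes. A match is a run of letters and not a site shown to be bound. The window of Irf1 that holds TTCNNNGAA (chr11:53769764-53770063, plus strand) and that of Gbp2, which holds GAAANNGAA on the opposite strand (chr3:142620413-142620712, plus strand), are given 5′ to 3′ with the matches in capitals.
Irf1: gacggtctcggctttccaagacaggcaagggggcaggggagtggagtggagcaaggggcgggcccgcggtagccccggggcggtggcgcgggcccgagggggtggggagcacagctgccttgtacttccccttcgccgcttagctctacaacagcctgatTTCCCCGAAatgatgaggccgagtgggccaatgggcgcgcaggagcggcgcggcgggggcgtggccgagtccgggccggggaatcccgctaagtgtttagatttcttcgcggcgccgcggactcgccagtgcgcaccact
Gbp2: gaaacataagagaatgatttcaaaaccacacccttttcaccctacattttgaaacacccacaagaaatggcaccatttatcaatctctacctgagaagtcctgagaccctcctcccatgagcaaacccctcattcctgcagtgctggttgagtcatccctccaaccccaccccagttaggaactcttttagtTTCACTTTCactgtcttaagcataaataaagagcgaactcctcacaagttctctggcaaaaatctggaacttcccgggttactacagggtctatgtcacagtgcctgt

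Antigen presentation genes induced by the same cytokine followed. Of 11 genes of the MHC class I pathway, 9 were called lower in the primary tumours, beside 3.99% of all genes (median log2 fold change -1.03), and for 8 the 2 kinds did not overlap, beside 2.55% of all genes. The immunoproteasome subunit Psmb8 was at 74.2, 121.4 and 182 CPM as the lowest, median and highest primary tumour and at 469, 254, 427 and 310.4 CPM in the allografts (log2 -1.45 ± 0.24, adjusted p = 0.00439). Psmb9 and Psmb10, the other subunits, were 2.85-fold and 2.6-fold lower, and the peptide transporters Tap1 and Tap2 2.35-fold and 2.12-fold lower. The heavy chain H2-K1 was called (2.04-fold lower), but the call was lost when any 1 of 9 tumours was left out (allografts 1 to 4 and primary tumours 2, 3, 5, 7 and 8; adjusted p = 0.0525 to 0.128). H2-D1 (log2 -0.78 ± 0.28, adjusted p = 0.104) and B2m (log2 -0.68 ± 0.27, adjusted p = 0.135) were not called, and class I heavy chains are near copies whose reads may be shared. Without allograft 3, 5 of the 11 genes were called. Of 8 class II genes, H2-DMb1 was called (2.16-fold lower), a call lost without any 1 of allografts 1 and 3 and primary tumours 2, 5 and 7 (adjusted p = 0.054 to 0.162). Of 16 genes of the type I interferon response, 3 were called lower, Zbp1 and Herc6 among them, and the list's median was -0.26. The calls of Zbp1 (without allograft 1 or 3; adjusted p = 0.0772 to 0.0899) and Herc6 (8 tumours, allografts 1 to 3 and primary tumours 2, 3, 5, 6 and 7; 0.0531 to 0.139) did not hold. Without allograft 1 or without allograft 3, 1 gene of the list was called.

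Many T cell, cytotoxic and checkpoint genes were also lower, while B and plasma cell genes gave no call. Of 14 cytotoxic and natural killer genes, 9 were called lower (median -1.61), and of 12 checkpoint and costimulatory genes, 7 (median -1.09), beside 3.99% of all genes. Genes of natural killer cells in the first list were divided. The receptor Klrd1 was called lower (log2 -1.53 ± 0.40, adjusted p = 0.0324), a call lost without allograft 1 or 3 (adjusted p = 0.109 to 0.11). Klrk1, which encodes NKG2D, was not called (-1.42 ± 0.43, adjusted p = 0.0561), but it was called without primary tumour 1 or 8. The receptor Ncr1 (log2 0.25 ± 0.42, adjusted p = 0.773), Klrb1c, which encodes NK1.1 (0.54 ± 0.62, 0.657), and the transcription factor Eomes (-0.01 ± 0.38, 0.988) were not called either. Under isotype Klrb1c was called higher (log2 2.58, adjusted p = 0.029). Gzmb, granzyme B (chr14:56258838-56262260, minus strand), was at 6.01, 14.5 and 31.5 CPM as the lowest, median and highest primary tumour and at 140.7, 37.6, 135.8 and 72.7 CPM in the allografts. All primary tumours lay below all allografts, and Gzmb was 6.4-fold lower (log2 -2.68 ± 0.43, adjusted p = 0.00408). Ifng itself was at 0.0483 to 0.702 CPM against 3.4, 1.02, 3.91 and 2.64 CPM (9.13-fold lower, adjusted p = 0.00692), and Gzma was 4.41-fold lower. Cd274, which encodes PD-L1, was at 6.28, 11.7 and 26.9 CPM as the lowest, median and highest primary tumour and at 77.5, 21.1, 83.5 and 44.4 CPM in the allografts. The groups overlapped through allograft 2 and 1 primary tumour, with a 4.29-fold lower level in the primary tumours (log2 -2.10 ± 0.40, adjusted p = 0.00804). Pdcd1lg2, encoding PD-L2, was 8.65-fold lower (log2 -3.11, and -2.15 without allograft 3). Pdcd1, encoding PD-1, was at 2.28 to 12.6 CPM against 27.4, 13.8, 34.4 and 17.5 CPM (3.79-fold lower, adjusted p = 0.0158), a call lost without allograft 1 (adjusted p = 0.0568) or allograft 3 (0.0669). Foxp3, the regulatory T cell factor, was at 5.03 ± 2.28 CPM (SD, n = 8) and 3.74 ± 1.13 CPM (SD, n = 4) and was not called (edgeR adjusted p = 0.514).

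Of 15 T cell genes, 7 were called lower (median -1.28), beside 3.99% of all genes, and no gene of the list separated the kinds completely. Cd8a was at 2.36 to 22.9 CPM in primary tumours and at 36.5, 18.3, 55.1 and 26.4 CPM in allografts, so that 7 of 8 primary tumours lay below every allograft (log2 -2.02 ± 0.53, adjusted p = 0.0339). The call was lost without any 1 of 7 tumours (allografts 1, 3 and 4 and primary tumours 2, 3, 5 and 8; adjusted p = 0.0515 to 0.128). Cd4 was at 11.4 ± 5.33 and 14.5 ± 10.6 CPM (SD, n = 8 and n = 4; log2 -0.34 ± 0.45, edgeR adjusted p = 0.708). The number of T cell genes called ranged from 0 without allograft 3 to 13 without primary tumour 1, and was 1 without allograft 1, 2 without allograft 4 or primary tumour 2, 3, 5 or 8, and 3 without primary tumour 6. The cytotoxic count was 3 without allograft 1 or allograft 3, and the checkpoint count was 2 without either. Ptprc, expressed by all leukocytes, was at 107.8 ± 24.6 CPM in primary tumours and at 217, 151, 293 and 107.4 CPM in allografts (log2 -0.82 ± 0.25, adjusted p = 0.0546). With Ptprc as a covariate, 0 T cell, 0 checkpoint, 1 cytotoxic, 3 interferon gamma and 0 class I genes were called. Over all genes that fit called 420, beside 1560 without it. Since Ptprc shares part of the difference between the kinds, the covariate takes out part of that difference. With the identifier digit instead, 0 T cell and 0 checkpoint genes were called, and 339 over all genes.

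Not every leukocyte gene followed. Of 14 macrophage genes, 1 was called lower and 1 higher, beside 3.99% and 4.94% of all genes, the latter Lyve1, a hyaluronan receptor of tissue-resident macrophages and lymphatic vessels. Adgre1, which encodes F4/80, was not called (log2 0.21 ± 0.33, edgeR adjusted p = 0.761). Lyve1 was 5.59-fold higher, lost without any 1 of 9 tumours (allografts 1 to 4 and primary tumours 1, 2, 3, 7 and 8; adjusted p = 0.0599 to 0.128). Among 9 neutrophil genes the granule genes Ngp and Camp were called lower, and both calls rested on allograft 3; all 9 lay below 0, with a median of -2.25. Ngp was at 167 CPM there and at 2.72, 0.345 and 3.54 CPM in allografts 1, 2 and 4 (adjusted p = 0.277 without allograft 3; Camp 0.41). The log2 difference of Camp, -5.40, was -1.80 without allograft 3 and -6.65 without primary tumour 4, and that of Ngp, -6.56, was -2.27 without allograft 3. Without primary tumour 4, 8 neutrophil genes were called. In the mast cell list 8 of 11 genes lay above 0 without a call (median 0.49, and 1.38 under isotype), and the 1 call was Mcpt1, a mucosal mast cell protease with near copies, 19.6-fold lower (log2 -4.29, and -3.52 without allograft 3). B and plasma cell genes (0 of 10, median -1.03) and dendritic cell genes (0 of 9, median -0.05) gave no call.

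Among the other chemokines, Cxcl12, which retains CXCR4-bearing cells, was higher in every primary tumour. It was at 388, 583 and 897 CPM as the lowest, median and highest primary tumour and at 209, 222, 330.1 and 244 CPM in the allografts (2.36-fold, log2 1.24 ± 0.23, adjusted p = 0.00724). The list of 14 gave 2 calls higher and 2 lower, beside 4.94% and 3.99% of all genes, and the 3 other calls depended on single tumours. Ccl12 was 2.08-fold higher (lost without any 1 of allografts 1, 2 and 4 and primary tumours 1, 4, 5, 6 and 8; adjusted p = 0.0535 to 0.114). Ccl3 and Ccl4 were 3.95-fold and 3.7-fold lower, lost without allograft 1, 3 or 4 (adjusted p = 0.051 to 0.0944 for Ccl3 and 0.0543 to 0.0967 for Ccl4).

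Genes under NRF2, the transcription factor that answers oxidative stress with glutathione and NADPH production, were lower in the primary tumours. The list was drawn up after Nqo1 and Gclc had been seen among the largest changes, so its count is a description: 13 of 21 were called lower, beside 3.99% of all genes, and none higher (median log2 fold change -0.81), and for 12 every primary tumour lay below every allograft, beside 2.55% of all genes. Nqo1, a quinone reductase (chr8:107388225-107403206, minus strand), was at 5.01, 9.51 and 22.7 CPM as the lowest, median and highest primary tumour and at 177, 145.0, 130.5 and 153 CPM in the allografts. The allografts lay close together and the level was 14.3-fold lower in the primary tumours (log2 -3.83 ± 0.31, adjusted p = 5.14e-05). Gclc, the catalytic subunit of glutathione synthesis (chr9:77754535-77794485, plus strand), was at 26.3 to 41.2 CPM against 71.9, 96.6, 82.1 and 108.3 CPM (log2 -1.42 ± 0.14, adjusted p = 0.000232), and its partner Gclm was 1.76-fold lower. The thioredoxin reductase Txnrd1 was 2.28-fold, the cystine importer Slc7a11 3.42-fold, glutathione reductase Gsr 2.03-fold and the pentose phosphate enzyme G6pdx 1.77-fold lower. The ferritin chains Fth1 (log2 -0.79 ± 0.28, adjusted p = 0.0951) and Ftl1 (log2 -0.59 ± 0.18, adjusted p = 0.0563) were not called. Nqo1 is also a target of the aryl hydrocarbon receptor, through which MCA acts. Of 6 tested targets of that receptor (median -1.13, 4 of them below 0), Cyp1b1 was the other one called. Cyp1b1 was 4.62-fold lower (log2 -2.21, and -1.51 without allograft 3). Its call was lost without any 1 of allografts 1 and 3 and primary tumours 1, 3, 5, 7 and 8 (edgeR adjusted p = 0.0562 to 0.188). Tiparp (log2 0.09 ± 0.22) and Ahrr (log2 0.12 ± 0.43) were not called (edgeR adjusted p = 0.859 and 0.904).

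Genes that cells raise when amino acids are short, under the factor ATF4, were higher in the primary tumours. This list too was drawn up after values had been seen, so its count is a description. In it 12 of 20 were called higher and none lower (median log2 fold change 1.28), beside 4.94% of all genes. The cystine importer Slc7a11, called lower, was placed in the NRF2 list and not in this one. Asns, asparagine synthetase (chr6:7675169-7693254, minus strand), was at 43.8, 55 and 112.9 CPM as the lowest, median and highest primary tumour and at 18, 17.6, 21.2 and 16.9 CPM in the allografts. Every primary tumour lay above every allograft, and the fitted difference was 3.65-fold (log2 1.87 ± 0.26, adjusted p = 0.00207). Slc7a3, a cationic amino acid transporter, was at 3.96 to 18 CPM against 0.411, 0.653, 0.258 and 0.427 CPM (21.3-fold higher), and Slc7a5, a large neutral amino acid transporter, was 2.47-fold higher. The stress-response genes Trib3, Atf5 and Ddit3 were 4.74-fold, 3.42-fold and 2.79-fold higher, and Pycr1, of proline synthesis, 2.94-fold. Phgdh and Shmt2, of serine and glycine synthesis, were 2.38-fold and 2.07-fold higher, lost without allograft 1 or 3, and for Phgdh also 4 (adjusted p = 0.0507 to 0.0717 for Phgdh and 0.058 to 0.0646 for Shmt2). Atf4 itself was not called (log2 0.49 ± 0.15, adjusted p = 0.0634).

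Promoters of 1 member of each of these lists are shown for the same reason as above. TGACNNNGC, the letters of an antioxidant response element, occurred in 8 of 16 NRF2-list genes with a window and in 13.99% of all genes, and TGATGNAA, the letters of a C/EBP-ATF site, in 5 of 16 amino acid genes and in 4.51% of all genes, on either strand. The Gclm window (chr3:122245307-122245606, plus strand) holds the first on the opposite strand, and the Asns window (chr6:7693160-7693459, read on the minus strand) holds the second.
Gclm: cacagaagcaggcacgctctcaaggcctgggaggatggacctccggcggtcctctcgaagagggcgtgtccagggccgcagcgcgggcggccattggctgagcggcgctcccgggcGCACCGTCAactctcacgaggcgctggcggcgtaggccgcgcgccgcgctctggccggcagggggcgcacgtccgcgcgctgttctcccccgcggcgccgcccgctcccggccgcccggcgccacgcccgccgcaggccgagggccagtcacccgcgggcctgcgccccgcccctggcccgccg
Asns: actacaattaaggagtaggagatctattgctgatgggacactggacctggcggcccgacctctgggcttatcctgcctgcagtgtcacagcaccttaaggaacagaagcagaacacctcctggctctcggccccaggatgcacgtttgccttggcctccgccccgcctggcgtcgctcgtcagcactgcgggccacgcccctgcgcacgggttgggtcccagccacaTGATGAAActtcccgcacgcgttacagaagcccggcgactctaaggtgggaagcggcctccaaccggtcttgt

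Imprinted genes, expressed from 1 parental allele, included a set that was higher in the primary tumours. Of 30 tested, 11 were called higher, beside 4.94% of all genes, and 1, Zim1, lower (median 0.76), and for 10 every primary tumour lay above every allograft, beside 3.62% of all genes. Zim1 did not exceed 0.961 CPM in any tumour, and its call was lost without allograft 1 or 3 (adjusted p = 0.0778 to 0.1). Rian, a maternally expressed non-coding RNA (chr12:109603940-109661716, plus strand), was at 82.8, 180.2 and 427 CPM as the lowest, median and highest primary tumour and at 14.5, 7.4, 10.6 and 10.5 CPM in the allografts (20-fold, log2 4.32 ± 0.49, adjusted p = 0.000525). Its neighbours Meg3 (chr12:109541001-109571726) and Mirg (chr12:109729764-109749460) were 17.9-fold and 16-fold higher. Dlk1, a Notch-related protein of the same cluster and of the other parental allele, was at 24.5 to 2600.4 CPM against 1.74, 46.5, 4.88 and 9.26 CPM. Its groups overlapped through allograft 2, and its call was lost without any 1 of 6 tumours (allografts 1, 3 and 4 and primary tumours 1, 2 and 8; adjusted p = 0.0512 to 0.111). The fitted log2 difference of Dlk1, 5.32, was 6.89 without allograft 2 and 4.46 without primary tumour 5.

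A second pair of neighbours lay on chromosome 6. Sgce, epsilon-sarcoglycan (chr6:4674350-4747207, minus strand), was at 42.9 to 72.2 CPM against 9.7, 14.1, 16.9 and 9.44 CPM (4.55-fold, adjusted p = 0.000122). Peg10, a gene of retrotransposon origin that starts beside it (chr6:4747306-4760517, plus strand), was at 38 to 121.1 CPM against 3.79, 12.4, 7.55 and 6.55 CPM (10-fold). Elsewhere, Ndn, the growth suppressor necdin, was 11.6-fold higher, Cdkn1c, an inhibitor of cyclin-dependent kinases, 5.36-fold, Igf2r, which clears IGF2, 2.68-fold, and Grb10, an adaptor that dampens insulin signalling, 2.4-fold. H19, the most abundant listed gene, was at 1161 ± 573 CPM (SD, n = 8) and 924 ± 414 CPM (SD, n = 4) and was not called (edgeR adjusted p = 0.704).

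**Figure D2:**
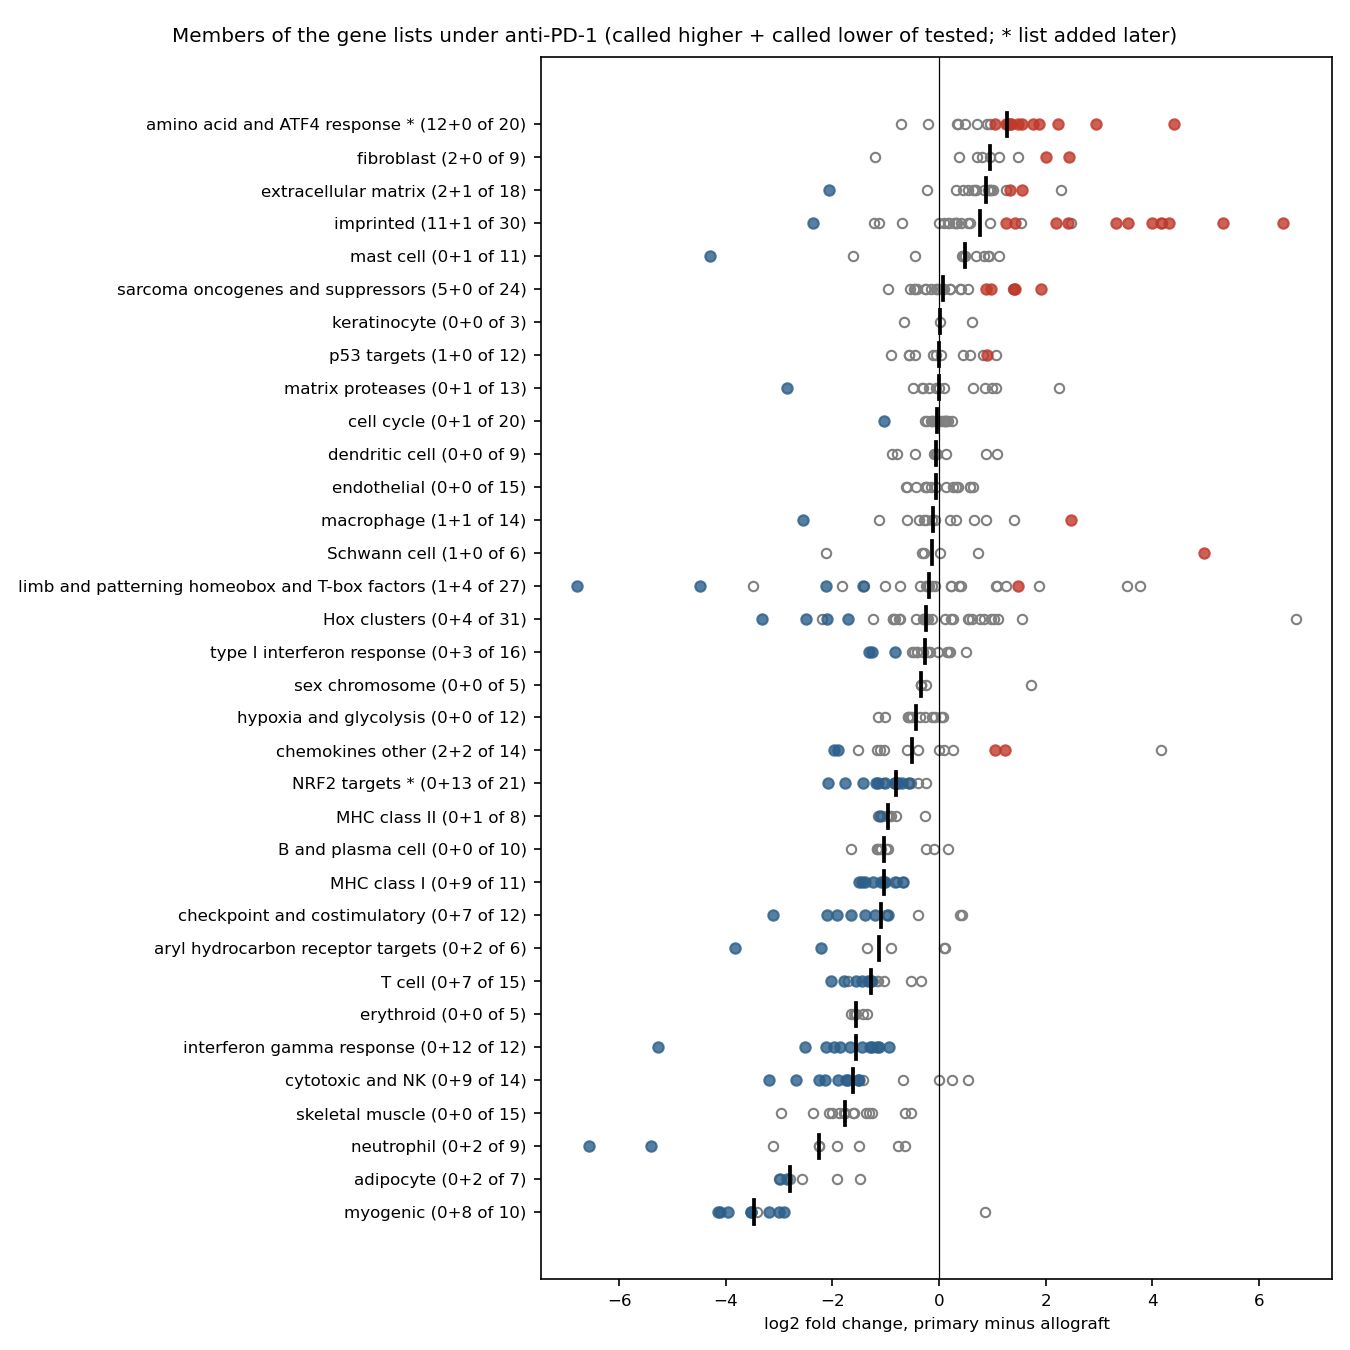
Log2 fold change (primary minus allograft, x axis) of each tested member of 34 gene lists in the anti-PD-1 comparison; filled points were called (red higher, blue lower), open points were not, and black bars are list medians. All 12 interferon gamma response genes lie below 0 and are filled, while the fibroblast, imprinted and amino acid lists have medians above 0.

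Genes of tumour growth control changed in part. Of 24 sarcoma oncogenes and suppressors, 5 were called, all higher in the primary tumours, beside 4.94% of all genes, with a list median of 0.08; with the digit or Ptprc as a covariate 2 were called. Egfr, a growth factor receptor (chr11:16752203-16918158, plus strand), was at 50.8, 96.5 and 138.3 CPM as the lowest, median and highest primary tumour and at 19, 25.7, 26.6 and 27.5 CPM in the allografts (3.75-fold, log2 1.91 ± 0.26, adjusted p = 0.00179). Cdkn2a, whose products p16 and p19ARF brake the RB and p53 pathways (chr4:89274471-89294653, minus strand), was at 593 to 1298 CPM against 305, 311, 242 and 379.8 CPM (2.69-fold, adjusted p = 0.00327), and its neighbour Cdkn2b was 2.65-fold higher. Ccnd2 (1.96-fold) and Myc (1.85-fold) were called too, and both calls were lost without allograft 1 or allograft 3 (adjusted p = 0.0711 to 0.0764 for Ccnd2 and 0.0784 to 0.0808 for Myc), which leaves 3 calls. Of 20 cell cycle genes, Rrm2, of deoxynucleotide synthesis, was called (2.05-fold lower), which is near the 3.99% of all genes; Mki67 was at 159.8 ± 42.2 and 188 ± 67.7 CPM (SD, n = 8 and n = 4; edgeR adjusted p = 0.645). Of 12 p53 targets, Phlda3 was called, beside 4.94% of all genes (1.87-fold higher; adjusted p = 0.0611 without allograft 3), and Cdkn1a was not (log2 -0.57 ± 0.19, adjusted p = 0.0802).

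Positional transcription factors gave few calls, beside 4.94% of all genes called higher and 3.99% lower. Of 27 tested limb and patterning factors, Tbx15 was called higher (2.78-fold, at 69.5 to 166 CPM against 43.5, 34.4, 41 and 40.7 CPM) and Dmrta2, Alx1, Msx1 and Six2 lower. Msx1 was at 0.608 to 6.56 CPM against 8.22, 16.6, 10.9 and 9.54 CPM (adjusted p = 0.0163). Alx1 did not exceed 1.31 CPM in any tumour (log2 -4.48, and -5.49 without primary tumour 6), and the call of Six2 was lost without any 1 of allografts 1 and 3 and primary tumours 1, 2, 5, 6, 7 and 8 (adjusted p = 0.0525 to 0.244). Dlx1 was at 0.0234, 0.152 and 7.88 CPM as the lowest, median and highest primary tumour and at 9.27, 16, 12 and 15.8 CPM in the allografts. Every primary tumour lay below every allograft, yet 1 of them came close, and Dlx1 was not called (log2 -3.49 ± 1.19, adjusted p = 0.0875); without primary tumour 7 it was (log2 -6.03, adjusted p = 0.00101). Emx2 (0.08 to 29 CPM against 1.21, 1.6, 1.78 and 0.728 CPM; adjusted p = 0.078) and Hand2 (0.054 to 67 CPM against 1.98, 0.78, 0.938 and 0.351 CPM; adjusted p = 0.103) had allograft levels inside the range of the primary tumours, and neither was called. Of 31 Hox genes, 4 of the HoxD cluster were called lower, beside 3.99% of all genes. With the digit or Ptprc as a covariate 1 Hox gene was called lower, and within identifiers that start with 5, where 1 primary tumour meets 3 allografts, 4 were called higher and 0 lower. Hoxd8 was at 7.35 to 33.6 CPM against 61.5, 64.3, 55.4 and 97 CPM (3.26-fold, adjusted p = 0.00844), and Hoxd3 did not exceed 0.762 CPM in any tumour. With the digit as a covariate the log2 differences of Hoxd8, Hoxd3, Hoxd9 and Hoxd10 were -1.49, -2.95, -2.15 and -3.50. With Ptprc they were -1.68, -2.75, -2.18 and -3.07. Hoxd9 and Hoxd10 lost their calls without any 1 of allografts 1 to 4 and primary tumours 1, 2, 3 and 7, with primary tumour 5 also for Hoxd9 and primary tumour 6 also for Hoxd10 (adjusted p = 0.0621 to 0.116 and 0.0516 to 0.0847), and the log2 difference of Hoxd10, -3.33, was -4.38 without primary tumour 8.

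Muscle differentiation genes were higher in the allografts given anti-PD-1. Of 10 tested myogenic genes, 8 were called lower in the primary tumours (median -3.47), beside 3.99% of all genes. Myog, myogenin (chr1:134289989-134292548, plus strand), was at 0.0914, 0.819 and 3.43 CPM as the lowest, median and highest primary tumour and at 28.6, 5.66, 23.2 and 3.61 CPM in the allografts (11.6-fold lower, adjusted p = 0.0101). The embryonic and perinatal myosins Myh3 and Myh8 were 17.6-fold and 17.3-fold lower, and Mymk, a membrane protein of myoblast fusion, 15.6-fold. Mature muscle genes ran the same way without a call, 0 of 15 (median -1.76): Acta1 was at 14.1 to 1467 CPM in primary tumours and at 4495, 1221, 684 and 1586 CPM in allografts. With the muscle list or the digit as a covariate 2 myogenic genes were called, and without allograft 1, whose muscle sum was the highest, 4. With Ptprc 0 were called (Myh3 at log2 -2.19, edgeR adjusted p = 0.239, and Mymk at -1.75, adjusted p = 0.421). With the digit the fitted differences were larger than in the reported fit, at -5.38 for Myh3, -5.88 for Myh8, -4.33 for Myog and -4.65 for Mymk. The amount of host muscle and the tumour cells' own expression of these genes cannot be told apart in whole tumours.

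Calls among matrix and stromal genes numbered 0 to 3 per list, beside 4.94% of all genes called higher and 3.99% lower. Of 18 matrix genes Col1a2 (2.51-fold) and Fn1, fibronectin (2.96-fold), were called higher and Col12a1 (4.18-fold) lower, with a list median of 0.88. The calls were lost without allograft 1 or 4 for Col1a2 (adjusted p = 0.0643 to 0.0819), allograft 1 or 3 or primary tumour 2 for Fn1 (0.0511 to 0.105), and allograft 3 or 4 for Col12a1 (0.0571 to 0.058). Of 13 matrix proteases and inhibitors, Mmp13, a collagenase, was called lower, at 3.34 to 15.1 CPM in primary tumours against a mean of 54.2 ± 45.5 CPM (SD, n = 4) in allografts (7.25-fold; log2 -2.86, and -2.20 without allograft 3). Of 9 fibroblast genes, Col15a1 (5.38-fold) and Dpt, dermatopontin (4.03-fold), were called higher, and neither held without allograft 1, 2 or 3, or for Dpt without allograft 4 or primary tumour 1, 2, 7 or 8 (adjusted p = 0.0524 to 0.0774 and 0.0534 to 0.0911). Of 7 adipocyte genes, all below 0 (median -2.79), Lep and Adipoq were called lower, lost without any 1 of allografts 1, 3 and 4 and primary tumours 5 and 8, and of primary tumour 3 for Lep or 4 for Adipoq (adjusted p = 0.0557 to 0.139 and 0.0502 to 0.127). Of 6 tested Schwann cell genes (median -0.14, 3 above 0 and 3 below), 1 was called, and it was higher. This was Cdh19, a Schwann lineage cadherin, at 0.13 to 19.5 CPM against 0.196, 0.0907, 0.141 and 0.1 CPM. Its call was lost without any 1 allograft (edgeR adjusted p = 0.0646 to 0.0861), and its log2 difference fell from 4.97 to 3.91 without primary tumour 2. None of 15 endothelial genes (median -0.06) and none of 12 hypoxia and glycolysis genes (median -0.43) was called, nor any of the keratinocyte, erythroid (median -1.55, all 5 below 0) and sex chromosome genes.

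**Figure D3:**
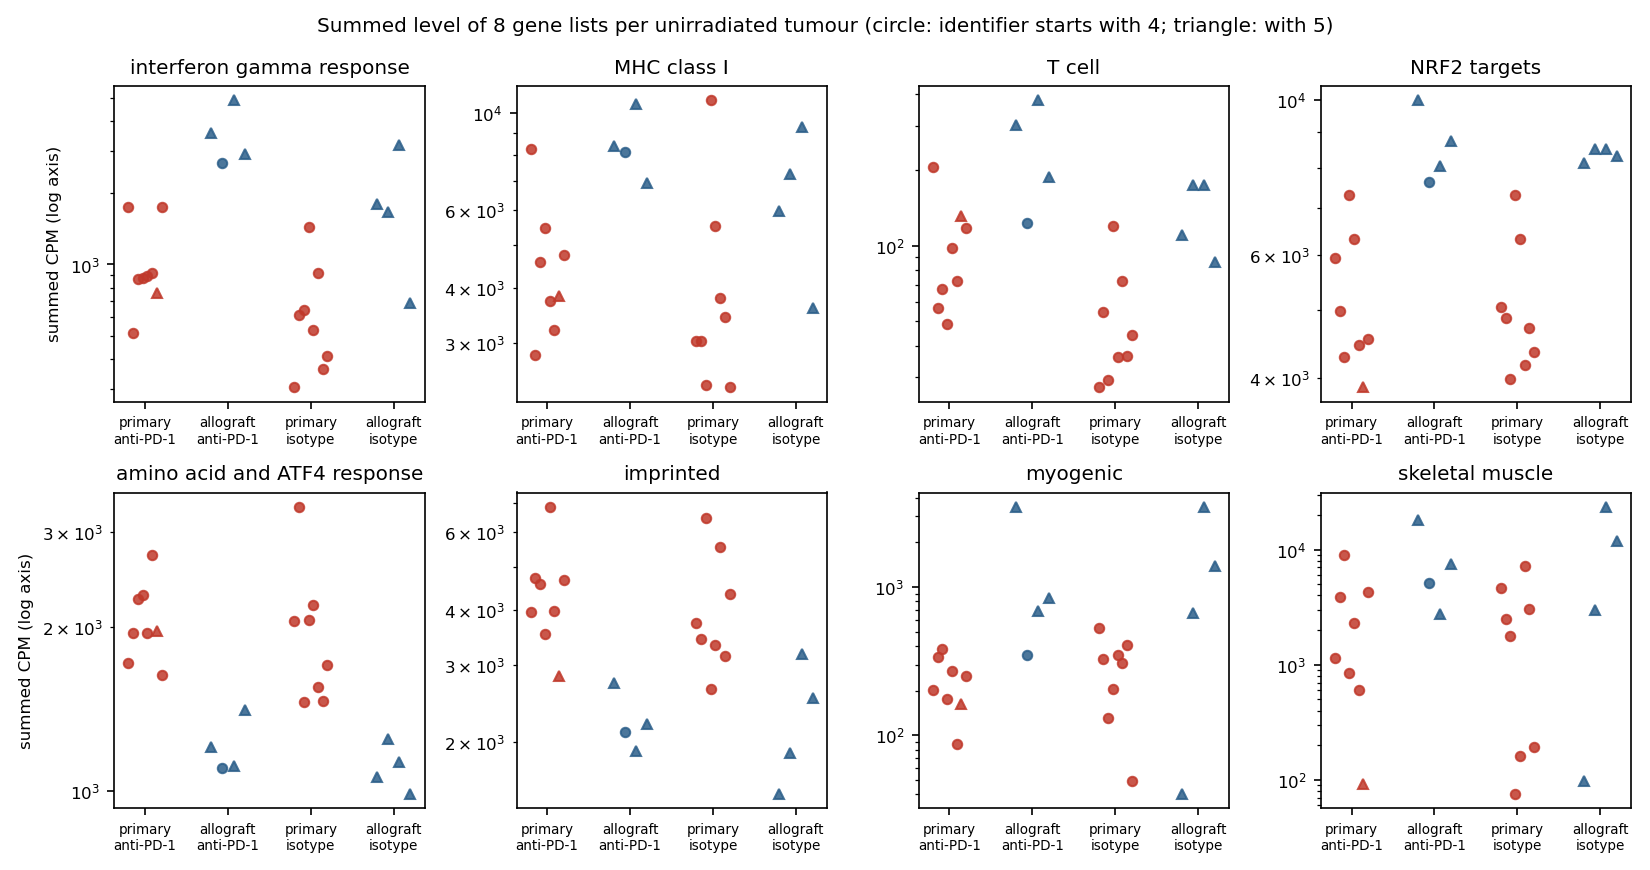
Summed level of 8 gene lists in each of 24 unirradiated tumours, in CPM on a log axis that differs between panels; red points are primary tumours and blue points allografts, and circles and triangles mark animal identifiers that start with 4 and 5. The interferon gamma sum is 513 to 1748 CPM in primary tumours and 2663 to 4897 CPM in allografts given anti-PD-1, and the muscle sum spans more than any other list.

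The same contrast was then read in the tumours given the isotype antibody, with the question whether it depends on PD-1 blockade. There 1738 of 17357 genes were called (10% of genes tested; 6.03% higher and 3.99% lower). The count was 973, 732 and 810 without isotype allografts 1, 2 and 4. Of the 1518 anti-PD-1 calls that were also tested under isotype, 1513 had the same sign in these other tumours, and over all 17078 genes tested in both arms 81.7% did. The calls shared by both arms numbered 899, or 57.6% of the anti-PD-1 calls and 51.7% of the isotype calls. For Nqo1 the log2 difference was -3.83 under anti-PD-1 and -4.08 under isotype, for Rian 4.32 and 4.65, for Asns 1.87 and 1.93, and for Dmrta2 -6.79 and -6.32. The amino acid list had 12 calls in each arm, the NRF2 list 13 and 11, and the imprinted list 11 and 10 called higher. The myogenic list had 8 and 1 called lower.

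The immune lists had fewer calls under isotype in places. Of the interferon gamma genes 12 were called under anti-PD-1 and 6 under isotype (medians -1.56 and -1.37), of the class I genes 9 and 1 (medians -1.03 and -0.76), and of the cytotoxic genes 9 and 2 called lower (medians -1.61 and -0.82). T cell genes went from 7 to 8 and class II genes from 1 to 7. Gzmb differed by -2.68 under anti-PD-1 and by -0.96 under isotype (adjusted p = 0.491), and Gzma by -2.14 and -0.59. A call in one arm and not in the other does not show that the arms differ, and the interaction of tumour kind and antibody was therefore tested over the 24 unirradiated tumours: 0 of 18272 genes passed (edgeR), 0 by DESeq2, and 0.679% had an unadjusted p below 0.05. That share is below the 5% that a test with no interaction anywhere would give, so the test was conservative here and its 0 calls do not show that the arms are alike. The interaction of Gzmb was -1.72 ± 1.02 (log2, SE; adjusted p = 1) and that of Gzma -1.56 ± 1.07 (adjusted p = 1), so differences of several fold between the arms lie within these errors.

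**Figure D4:**
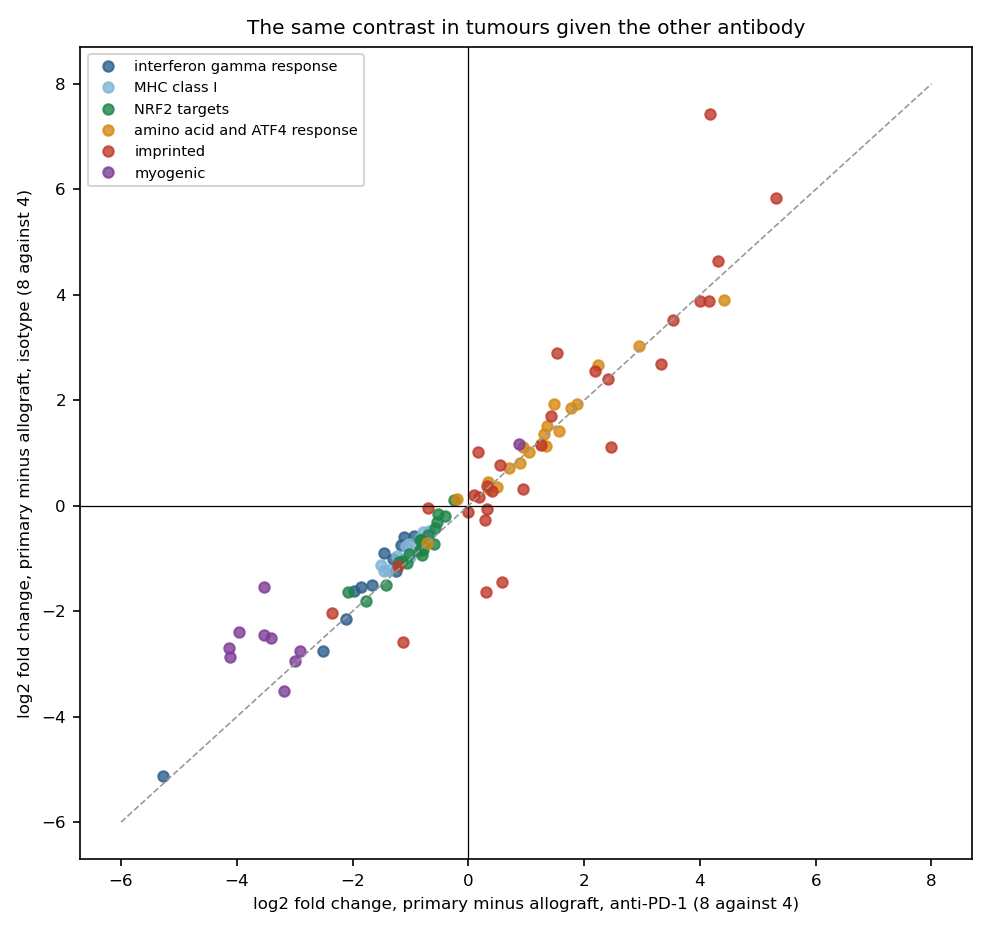
Log2 fold change (primary minus allograft) of the members of 6 gene lists under anti-PD-1 (x axis) and under isotype (y axis), each from 8 primary tumours against 4 allografts that share no tumour; the dashed line marks equal values. The NRF2, amino acid and interferon gamma genes lie along the line, and the myogenic genes are spread around it.

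The possible batch and the tissue makeup were each put into the model; differences between lists in this respect were not tested. With the identifier digit as a covariate, 10 amino acid genes were called higher (12 without it), 8 imprinted genes higher (11) and 7 NRF2 genes lower (13). In the same fit 2 interferon gamma genes (12), 0 class I genes (9) and 0 cytotoxic genes (9) were called lower. Over all genes that fit called 258 higher (863 without the digit) and 81 lower (697), so lower calls fell far beyond these lists. With the muscle list the counts were 10 amino acid, 11 imprinted, 8 NRF2, 6 interferon gamma, 3 class I, 3 cytotoxic and 2 T cell genes. All genes then gave 375 calls higher and 241 lower. With Ptprc, 9 amino acid, 9 imprinted and 8 NRF2 genes were called, beside 420 of all genes, 287 of them higher. Fitted differences moved by unequal amounts. For Irf1 the log2 difference was -1.21 with the digit and -0.96 with Ptprc in the model, for Psmb8 -1.39 and -1.02, and for Gbp2 -1.64 and -1.14. For Cd274 they were -1.59 and -1.29, for Gzmb -2.04 and -1.76, and for Pdcd1lg2 -1.84 and -1.66, against -3.11 without a covariate. With Ptprc, Cxcl9 was at -1.58 (from -2.51), H2-K1 at -0.57 (from -1.03) and H2-DMb1 at -0.17 (from -1.11). With the digit they were at -2.42, -1.12 and -0.80. Cxcl9 and H2-K1 thus lost their calls with the digit although their differences stayed about as large. All 24 genes with the smallest p, 12 in each direction, were called with the digit in the model, Nqo1 at -3.95 and Aldh1l2 at 3.12 among them. These genes were picked for their p in the same tumours. A model with the digit compares the kinds within each digit, so it leans on allograft 2 and primary tumour 7. Within the identifiers that start with 4, allograft 2 stands alone against 7 primary tumours, and within those that start with 5, primary tumour 7 stands alone against 3 allografts, so the fits within a digit assume that the lone tumour varies like the rest; they called 9 and 309 genes. Under isotype the digit and the tumour kind cannot be told apart, since all 8 primary identifiers start with 4 and all 4 allograft identifiers with 5.

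**Figure D5:**
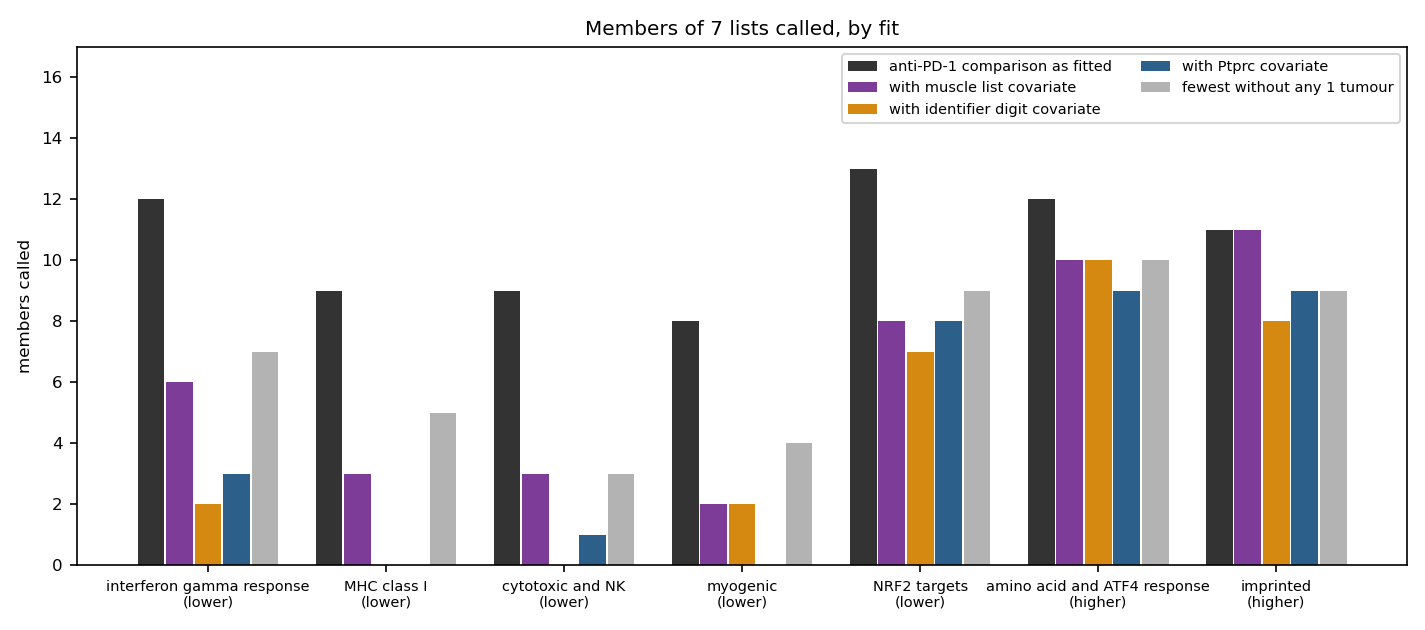
Number of members called in 7 gene lists, in the direction given under each name, by fit: the anti-PD-1 comparison as reported, the same with 1 covariate (muscle list, identifier digit or Ptprc), and the fewest calls when any 1 of the 12 tumours is left out. The amino acid list has 9 to 12 calls in every fit shown and the class I list falls to 0 with the digit or Ptprc.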

How the data were processed

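Whole tumours were sequenced as poly(A) RNA with a KAPA stranded mRNA kit, per the labels' protocols. The deposited table holds whole-number read counts for 36854 genes, not normalized; the submitters' processing notes name Trimmomatic 0.36, STAR, HTSeq and the mm10 genome. The annotation and strand setting of the authors' counting are not given in the sources used here, so overlapping and antisense genes may share reads. Gene names and coordinates came from GENCODE M21 (GRCm38), which matched 36796 genes.

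Genes were tested with edgeR 4.0.16 in R 4.3.3 (filterByExpr, TMM, glmQLFit and glmQLFTest, Benjamini-Hochberg adjustment, threshold 0.05), with the 8 and 4 tumours of the comparison alone. Log2 fold changes are primary minus allograft, with the standard error. CPM used TMM factors over 48 tumours. DESeq2 1.42.0 was an alternative. The test was checked on simulated data. Other alternatives were the low-count filter, size factors, more tumours in the fit, each tumour left out, and covariates for the identifier digit, muscle list, Ptprc and Xist. An outlying tumour was sought by Dixon's test on log2 CPM.

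Members and lists were chosen with earlier results of these data known. The genes named are the 12 with the smallest p each way (at least 5 CPM in the higher group), 14 set genes, 6 genes named earlier for the isotype comparison, and up to 4 called and 2 uncalled members of each of 32 lists. The NRF2 and amino acid lists, and Meg3, Mirg, Dlk1, Cdkn1c, Grb10, Igf2r, Asns, Slc7a5, Trib3, Ddit3, Phgdh, Shmt2, Slc7a11, Gsr, Gbp2, Igtp, Iigp1, Cxcl10, Tap1, H2-K1, Emx2, Hand2, Six2, Myc, Zim1, Ncr1, Klrb1c, Eomes, Klrd1 and Klrk1, were chosen after their values were seen. In the report, "called" means an adjusted p below 0.05 by edgeR. Some genes are not reported here.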

Additional observations from a re-analysis of the deposited data

Results flagged for a closer look

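For each named gene, the highest or lowest tumour of each group was compared with the others by Dixon's test, and 9 of 270 pairs of gene and group stood out (3.33%); chance gives about 1 in 20. In the allografts, Mmd was at 316 CPM in allograft 4 against 176 to 180.3 CPM in the other 3, Hapln4 at 7.3 CPM against 4.43 to 4.57 CPM, and Txnrd1 at 491 CPM against 359.8 to 361 CPM, while Foxp3 was lowest there at 2.08 CPM against 3.97 to 4.5 CPM. H19 was at 1543 CPM in allograft 1 against 661 to 758 CPM. In allograft 2, Ltc4s was at 1.09 CPM against 1.71 to 1.81 CPM, and Xist at 76.1 CPM against 0.125 to 0.411 CPM. Among the primary tumours, Eda was at 4.48 CPM in replicate 8 against a lowest value of 6.74 CPM in the others, and Ahrr at 0.493 CPM in replicate 3 against 1.21 CPM.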

How the results depend on the processing

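No paired analysis was possible because the labels give no replicate numbers that tie tumours of the 2 kinds together. Against 1560 genes called (863 higher, 697 lower), DESeq2 called 2756 (1566 and 1190), the identifier digit as a covariate 339 (258 and 81), the skeletal muscle list as a covariate 616 (375 and 241), and Ptprc as a covariate 420 (287 of them higher). Tumours whose identifiers start with 4 alone gave 9 calls (1 and 8), and those that start with 5 alone 309 (262 and 47). The share of calls that were higher was 55.3% in the reported fit, 76.1% with the digit, 68.3% with Ptprc and 84.8% within identifiers that start with 5, but 44.8% without allograft 4, 48.6% without allograft 2, 49.4% with no low-count filter and 11.1% within identifiers that start with 4. Leaving out 1 tumour at a time gave 634 to 1921 calls (357 to 1127 higher, 277 to 919 lower), the fewest without allograft 1 (634) and allograft 3 (641). Under isotype, DESeq2 called 2868 genes, and leaving out 1 tumour gave 732 to 2187; the interaction stayed at 0 calls. DESeq2 size factors, no low-count filter, a minimum of 1 CPM, all 48 tumours or 24 unirradiated tumours in the fit, and Xist as a covariate gave anti-PD-1 counts between 1291 and 1769. Single lists moved further: with all 48 tumours in the fit 0 T cell genes were called lower (7 as reported), 4 cytotoxic (9), 4 checkpoint (7), 3 myogenic (8) and 0 adipocyte genes (2), and with 24 tumours 5 cytotoxic, 1 type I interferon (3), 1 Hox (4) and 0 adipocyte genes. By DESeq2 several lists rose instead. It called 12 T cell, 18 NRF2 (13) and 6 adipocyte genes lower, and 16 imprinted (11) and 7 matrix genes (2) higher. Of the called genes named, 76 were called whichever tumour was left out and 51 with the digit as a covariate. Ngp and Camp changed sign within identifiers that start with 4 (log2 0.54 and 1.40). The cause of these shifts was not tested. Precision is limited by 4 allografts of 1 line; depth was at least 37747858 counts per library, and its effect was not tested.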
